A study of Mus musculus with 56 samples.

Results

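The genes described here are the neurotrophins Bdnf and Ntf3, the neurotrophin receptors Ntrk2, Ntrk3 and Ngfr, and the secreted or surface growth proteins Nrn1 (neuritin) and Vgf. Their transcripts were measured on 1-colour expression arrays of inbred mouse strains, with 29 arrays of prefrontal cortex and 27 of nucleus accumbens, which forms the ventral striatum. The members were all probe sets, groups of short probes that report 1 transcript region, annotated to 1 of these symbols alone: 23 of the 44951 probe sets used, which read 6 of the 18182 genes named on the array. Of these, 8 belonged to Ntrk2, 8 to Ntrk3, 3 to Ngfr, 2 to Bdnf, and 1 each to Nrn1 and Vgf. No probe set was assigned to Ntf3 alone in the gene table used here, and Ntf3 was not analysed here.

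For each array, RNA of 3 male mice of 1 inbred strain was pooled, at an age of 8 to 10 weeks. Cortex and accumbens of a strain were dissected from the same brains. The strains, each with no engineered allele named in the labels, were WSB/EiJ, SWR/J, SM/J, SJL/J, RIIIS/J, PL/J, P/J, NZW/LacJ, NON/LtJ, NOD/LtJ, MA/MyJ, KK/HlJ, I/LnJ, FVB/NJ, DBA/2J, CE/J, CBA/J, C58/J, C57BR/cdJ, C57BL/6J, C3H/HeJ, BUB/BnJ, BTBR T+ tf/J, BALB/cByJ, AKR/J, A/J and 129S1/SvImJ in both regions, and NZO/HILtJ and MRL/MpJ in cortex only. Since each strain gave 1 pool per region, n counts strains. Both regions of a strain come from the same mice. Differences between pools of mice therefore cannot be separated from differences between strains, within a region or over both.

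BDNF binds the receptor tyrosine kinase TrkB, encoded by Ntrk2, and neurotrophin-3 binds mainly TrkC, encoded by Ntrk3, while all neurotrophins bind the p75 receptor encoded by Ngfr. Ntrk2 and Ntrk3 are each transcribed as full-length receptors with a kinase domain and as truncated receptors without one; truncated TrkB is abundant in astrocytes. Cortical neurons make BDNF and transport it along their axons to the striatum, whose own neurons make little of it. Bdnf, Vgf and Nrn1 are induced by neuronal activity, Vgf encodes a precursor of secreted peptides stored in dense-core granules, and Nrn1 encodes a small protein anchored to the neuronal surface.

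Bdnf has several promoters, and binding of CREB family factors to cAMP response elements is a known route of its induction by activity. The RefSeq promoter table held 7 windows for Bdnf, each reaching from 250 bases before to 50 bases after an annotated start. The window below is shown because it was the only 1 of the 7 that held the core of the element, CGTCA (capitals), searched on both strands. It lies at chr2:109692186-109692485 on the plus strand (GRCm38.p6), and the match begins 35 bases before the start.
Bdnf promoter: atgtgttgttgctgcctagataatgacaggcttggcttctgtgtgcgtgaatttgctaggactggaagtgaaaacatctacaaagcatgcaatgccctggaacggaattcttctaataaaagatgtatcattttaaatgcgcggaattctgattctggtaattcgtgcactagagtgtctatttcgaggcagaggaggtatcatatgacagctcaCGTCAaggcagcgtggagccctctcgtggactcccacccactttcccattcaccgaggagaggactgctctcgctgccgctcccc
The same 5 letters were found on either strand in 20.8% of all 32851 promoter windows, and the full palindrome TGACGTCA in 1.79% of all windows and in none of the 11 windows of the genes described here (7 of Bdnf, 2 of Ntf3, 1 of Ngfr and 1 of Ntrk2). There was no window for Ntrk3, Nrn1 or Vgf, so these genes were not searched. A match of letters is a description of the window and not evidence of a bound site.

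Values are log2 of the deposited intensities. Of the 23 probe sets, 13 exceeded log2 5, the level taken here as dim, on 13 or more of the 54 arrays that form pairs, and were tested: 6 of Ntrk2, 4 of Ntrk3 and 1 each of Bdnf, Nrn1 and Vgf. All 3 Ngfr probe sets fell below this filter. The region difference was fitted with limma on all 16056 probe sets that passed, with strain as a block and Benjamini-Hochberg adjustment, and an adjusted p below 0.05 was taken as a call. Most of the array differed between the regions. The share of tested probe sets called in either direction was 83.3%, with 51.8% higher and 31.5% lower in accumbens. Of the 13 tested here, 12 were called, 6 higher and 6 lower, so their count is near the background and the size of the differences carries the description. Differences of at least 1 log2 unit were called for 15.5% of tested probe sets and for 2 of the 13, those of Bdnf and Nrn1. The median difference was 0.13 over all tested probe sets and 0.09 over the 13.

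Markers checked the dissection. All 6 tested genes of cortical excitatory neurons were lower in accumbens (median -4.65) and all 6 of striatal spiny neurons higher (median 4.90). All 7 of oligodendrocytes were higher in accumbens (median 1.36), and of 8 astrocyte genes 5 were lower and 2 higher. The MA/MyJ cortex array stood apart, with a spiny neuron list mean of 10.31 against at most 5.89 on the other cortex arrays. The BALB/cByJ accumbens array had the lowest spiny neuron mean (8.17, median of all 10.97), and in accumbens NOD/LtJ had the highest cortical neuron mean (5.34, median 3.61). Some results are also given without 5 strains whose arrays stood apart (MA/MyJ, BALB/cByJ, CE/J, NON/LtJ and WSB/EiJ). Some also leave out, beside these, 4 with raised cortical genes in accumbens, the 4 highest in cortical neuron mean there (NOD/LtJ, SJL/J, P/J and BUB/BnJ). The part of tissue composition in the results below was not tested, and in bulk tissue fewer cells of a type and less RNA per cell cannot be told apart. Normalization was also run per region, so region and run cannot be told apart.

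Bdnf and Nrn1 were bright in cortex in every strain, and in accumbens Bdnf was dim on all 27 arrays and Nrn1 on all but 4. The brighter Bdnf probe set, 1422168_a_at, ranged in cortex from 6.48 in BTBR T+ tf/J and 6.54 in C57BR/cdJ through a median of 7.51 to 8.49 in NON/LtJ and 8.53 in I/LnJ (mean 7.52 ± 0.49, SD, n = 29). In accumbens it ranged from 2.37 in I/LnJ through a median of 2.45 to 3.52 in BUB/BnJ (2.57 ± 0.28, n = 27). All 29 cortex arrays lay above log2 5 and 0 of 27 accumbens arrays did, so the regions did not overlap. Over the 27 paired strains Bdnf was lower in accumbens by a log2 difference of -4.93 (SE 0.11, adjusted p = 1.31e-26, limma), in 27 of 27 strains. This probe set passed the filter through its cortex arrays alone. The difference, its SE and its p use accumbens values below log2 5, so only the direction is read from them. Since the accumbens level was dim, the fold is a bound: cortex was at least 5.66-fold higher than log2 5. The paired difference ran from -6.16 in I/LnJ to -3.93 in BUB/BnJ. The other Bdnf probe set, 1422169_a_at, was above log2 5 on 7 cortex arrays and 0 accumbens arrays and was not tested. Its cortex levels ran from 3.83 in BTBR T+ tf/J through a median of 4.70 to 5.40 in NZO/HILtJ, and its accumbens levels lay between 1.91 and 1.97. BTBR T+ tf/J and C57BR/cdJ were the lowest pair of cortex arrays by both probe sets.

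The Nrn1 probe set, 1428393_at, ranged in cortex from 9.18 in MA/MyJ and 9.73 in BTBR T+ tf/J through a median of 10.17 to 10.57 in SM/J (10.14 ± 0.29, n = 29). In accumbens it ranged from 2.49 in C57BL/6J through a median of 3.31 to 6.04 in BALB/cByJ (3.58 ± 1.00, n = 27). The log2 difference was -6.56 (SE 0.18, adjusted p = 7.78e-24, limma), lower in 27 of 27 strains, and cortex was at least 35.3-fold higher than log2 5. Nrn1 passed the filter mainly through cortex, with 29 cortex and 4 accumbens arrays above log2 5. Its difference, SE and p rest largely on dim accumbens values, and only the direction is read from them. The regions did not overlap. Among all tested probe sets, 4.67% had accumbens arrays that all lay below all cortex arrays, and 5.85% the reverse. Here 2 of the 13 did, both lower in accumbens. The lowest cortex array, MA/MyJ, was also the one rich in spiny neuron genes, and without any 1 strain the Nrn1 and Bdnf calls were kept. Of the accumbens arrays, BALB/cByJ, BUB/BnJ (5.46), SJL/J (5.44) and NOD/LtJ (5.23) lay above log2 5, and P/J lay at 4.99. The other 22 lay at 3.95 or below.

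Vgf, whose peptide precursor is stored in dense-core granules, was bright in both regions. In cortex 1436094_at ranged from 9.03 in BTBR T+ tf/J through a median of 9.72 to 10.09 in SM/J (9.69 ± 0.23, n = 29), and in accumbens from 9.28 in BTBR T+ tf/J through a median of 9.72 to 10.40 in SJL/J (9.79 ± 0.24, n = 27). The ranges overlapped almost entirely, and the strain BTBR T+ tf/J was lowest in both. The difference of 0.10 (SE 0.05, adjusted p = 0.0846, limma) missed the threshold and was higher in accumbens in 17 of 27 strains. It passed without NON/LtJ (0.13, adjusted p = 0.027) or without SM/J (0.12, adjusted p = 0.04), and also when arrays were centred on their medians (0.15, adjusted p = 0.015).

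**Figure D1:**
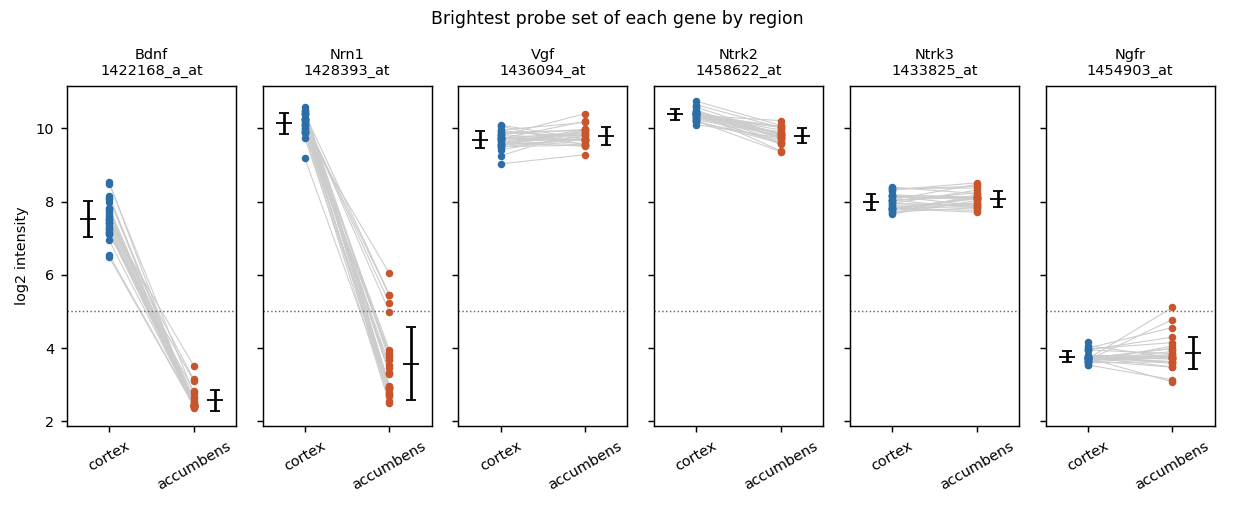
Log2 intensity of the brightest probe set of each gene in prefrontal cortex (blue, 29 strains) and nucleus accumbens (orange, 27 strains); grey lines join a strain's arrays, black bars are the mean ± SD and the dotted line is log2 5. Bdnf and Nrn1 fall from means of 7.52 and 10.14 to 2.57 and 3.58 with no overlap, while Vgf stays between 9.03 and 10.40 in both regions.

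The receptor Ntrk2 was read by 6 tested probe sets that did not move together: 4 were lower in accumbens and 2 higher. The probe set 1458622_at ranged in cortex from 10.10 in KK/HlJ through a median of 10.39 to 10.74 in A/J and in accumbens from 9.36 in BTBR T+ tf/J through a median of 9.81 to 10.21 in BUB/BnJ. It was lower in accumbens by a log2 difference of -0.58 (SE 0.04, adjusted p = 5.36e-14, limma), in 27 of 27 strains. The probe set 1437560_at had means of 8.61 ± 0.30 in cortex and 7.88 ± 0.20 in accumbens, with a difference of -0.74 (SE 0.06), and 1435305_at had means of 9.74 ± 0.28 and 9.26 ± 0.23, with a difference of -0.48 (SE 0.05). Both were lower in accumbens in 27 of 27 strains as well, although the ranges of the regions overlapped.

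Against these, 1435196_at had cortex levels from 7.60 in I/LnJ to 8.55 in C3H/HeJ (7.98 ± 0.23) and accumbens levels from 8.01 in C57BL/6J to 9.43 in BALB/cByJ (8.45 ± 0.34). It was higher in accumbens by 0.49 (SE 0.07, adjusted p = 4.92e-08, limma), in 26 of 27 strains. The probe set 1420838_at was higher by 0.25 (SE 0.05, adjusted p = 5.88e-05), in 25 of 27 strains. On both of these the BALB/cByJ and NON/LtJ accumbens arrays were the highest. The last, 1446712_at, lay near the dim level, with means of 5.73 ± 0.77 and 5.51 ± 0.59, and was lower, with a difference of -0.28 (SE 0.10, adjusted p = 0.0136), in 19 of 27 strains. That call was lost without the 5 strains that stood apart and the 4 with raised cortical genes in accumbens (-0.18, adjusted p = 0.18). The remaining Ntrk2 probe sets were dim. 1444121_at lay between 2.47 and 2.73 on all arrays, and 1420837_at exceeded log2 5 on 1 cortex array, A/J (6.34), and 1 accumbens array, BALB/cByJ (6.39).

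The Ntrk2 probe sets differed from each other in their region difference. The paired region differences of 2 probe sets of 1 gene were compared by a 2-sided sign-flip permutation test over 27 strains, with adjustment over the 21 pairs of Ntrk2 and Ntrk3, and 14 of 15 Ntrk2 pairs passed. Of these, 1435305_at against 1458622_at (0.10 apart, SD 0.25, adjusted p = 0.049) did not pass without the 5 strains that stood apart (adjusted p = 0.18) or with quantile normalization (adjusted p = 0.099), and 1446712_at against 1458622_at (0.30 apart, SD 0.56, adjusted p = 0.013) did not pass with quantile normalization (adjusted p = 0.06). The widest was 1435196_at against 1437560_at, whose region differences lay 1.24 apart (SD 0.53), in the same direction in 27 of 27 strains (adjusted p = 2.3e-05, from a p of 1e-05, the smallest the draws can give). The sources used here do not say which transcript form, full-length or truncated, each probe set matches, so these values cannot be assigned to the kinase or the kinase-less receptor.

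Ntrk3, the neurotrophin-3 receptor, was called higher in accumbens on all 4 tested probe sets, on 2 of them by little. The largest difference was that of 1455917_at, with cortex levels from 4.80 in I/LnJ through a median of 6.32 to 7.27 in RIIIS/J and accumbens levels from 6.40 in KK/HlJ through a median of 7.06 to 7.60 in BALB/cByJ. It was higher in accumbens by 0.92 (SE 0.13, adjusted p = 1.18e-07, limma), in 24 of 27 strains, and its cortex arrays spread more widely (SD 0.67) than its accumbens arrays (SD 0.25). The probe set 1422329_a_at was higher by 0.62 (SE 0.09, adjusted p = 3.89e-07), in 25 of 27 strains, with the same narrowing of the SD from 0.47 in cortex to 0.26 in accumbens.

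The other pair differed little. The brightest Ntrk3 probe set, 1433825_at, had means of 8.00 ± 0.22 in cortex and 8.08 ± 0.21 in accumbens and a difference of 0.09 (SE 0.04, adjusted p = 0.0342, limma), higher in 17 of 27 strains. With quantile normalization across both regions, which took the median over all tested probe sets from 0.13 to 0.02, it became -0.002 (adjusted p = 0.97), and the call was lost without any 1 of 9 strains (129S1/SvImJ, BTBR T+ tf/J, C57BL/6J, C57BR/cdJ, CE/J, I/LnJ, NZW/LacJ, PL/J and SJL/J; 0.08 to 0.09). The probe set 1447723_at was higher by 0.20 (SE 0.07, adjusted p = 0.0152) in 18 of 27 strains, and with quantile normalization by 0.09 (adjusted p = 0.29). With that normalization 4 of the 13 probe sets described here were called higher in accumbens, against 42.6% of all tested, and 6 lower, against 39.5%. The permutation test separated 5 of 6 Ntrk3 pairs, of which 1422329_a_at against 1447723_at (0.42 apart, SD 0.74, adjusted p = 0.0078) did not pass without the 5 strains that stood apart (0.26, adjusted p = 0.074). The widest was 1433825_at against 1455917_at, 0.83 apart (SD 0.73, adjusted p = 2.3e-05), with the latter larger in 24 of 27 strains. The remaining 4 Ntrk3 probe sets lay below log2 5 on all arrays.

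**Figure D2:**
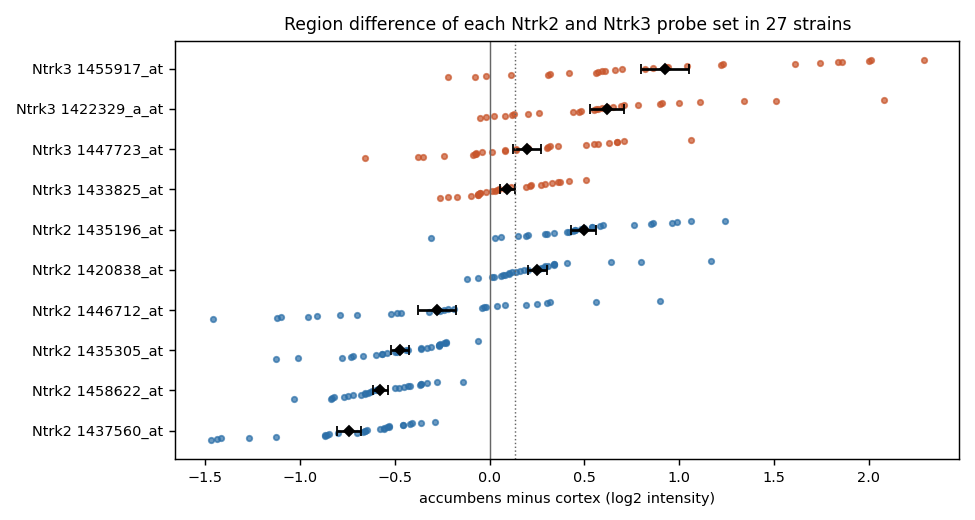
Accumbens minus cortex difference in log2 intensity of each tested Ntrk2 (blue) and Ntrk3 (orange) probe set; dots are 27 strains, black diamonds the limma estimate ± SE, the solid line is 0 and the dotted line the median of all tested probe sets (0.13). Estimates run from -0.74 to 0.49 for Ntrk2 and from 0.09 to 0.92 for Ntrk3.

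Ngfr, the p75 receptor, which in the adult forebrain marks basal forebrain cholinergic neurons, was below the dim level in both regions on all but 1 array. Its brightest probe set, 1454903_at, ranged in cortex from 3.53 in MRL/MpJ to 4.17 in NZO/HILtJ (3.76 ± 0.15) and in accumbens from 3.08 in SJL/J to 5.11 in BALB/cByJ (3.86 ± 0.44). BALB/cByJ was the only array above log2 5. On that array Lhx8, a transcription factor of forebrain cholinergic neurons and the only tested gene of the 4 cholinergic markers listed, was also the highest of all accumbens arrays at 9.64, against a median of 6.62. Chat, Slc18a3 and Slc5a7, the other markers listed, were dim in accumbens, with means of 2.06, 1.97 and 2.22. The arrays next highest in Lhx8, NON/LtJ (8.75), WSB/EiJ (8.46) and CE/J (8.27), had Ngfr at 3.85, 3.79 and 4.30. The second highest for Ngfr was BTBR T+ tf/J at 4.78, where Lhx8 was 7.03. The other Ngfr probe sets, 1421241_at and 1450177_at, had means of 2.08 and 2.39 in cortex and 2.09 and 2.38 in accumbens. No fold or test is given for Ngfr.

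Differences between strains shared by both regions were tested with limma's moderated F over the strain coefficients. The 2 arrays of a strain come from the same mice, so strain and pool of mice cannot be told apart in these calls. The call was made for 20.1% of all tested probe sets and for 4 of the 13 described here, 2 of Ntrk2 and 2 of Ntrk3. Most of the 13 belong to these 2 genes, so the calls are not read as a trait of the receptors. The widest spread was on Ntrk3 1447723_at (adjusted p = 2.16e-08), whose strain means, averaged over both regions, had an SD of 0.69 against a median SD of 0.19 over all tested probe sets. C57BL/6J was lowest in each region, with 5.42 in cortex and 5.56 in accumbens, and its strain mean of 5.49 was followed by SM/J at 6.10 and C57BR/cdJ at 6.22. NON/LtJ (8.24), NOD/LtJ (8.17) and A/J (8.16) had the highest strain means and lay close together. In cortex C57BL/6J was also lowest on 1433825_at (7.66) and next to lowest on 1422329_a_at (5.07) and 1455917_at (4.94), but in accumbens it lay at 8.03, 6.41 and 6.95 on these, nearer their medians of 8.09, 6.51 and 7.06. The strain spread on 1447723_at is that of 1 probe set and is not read as a strain difference in the level of Ntrk3. Over all strains, none of the correlations of 1447723_at with the other 3 tested Ntrk3 probe sets passed. They ran from rho = -0.27 to -0.12 in cortex (r = -0.18 to -0.04, n = 29) and were rho = -0.20, -0.14 and 0.35 in accumbens with 1433825_at, 1422329_a_at and 1455917_at (the last with r = 0.27, permutation adjusted p = 0.39 and 0.27, n = 27).

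On Ntrk2 1446712_at (strain adjusted p = 0.000411, limma), RIIIS/J was lowest in each region, with 3.75 in cortex and 3.79 in accumbens. Its strain mean of 3.77 lay below the next, I/LnJ at 4.83, and the highest were FVB/NJ at 6.59 and PL/J at 6.53. In cortex MRL/MpJ, not profiled in accumbens, was next to RIIIS/J at 3.96. On the other tested Ntrk2 probe sets RIIIS/J was the third lowest in accumbens on 1458622_at (9.56), 1435305_at (9.00) and 1437560_at (7.59), though not in cortex, where it lay at 10.39, 10.01 and 8.46. It was not low in either region on 1435196_at (7.84 and 8.32) or 1420838_at (8.65 and 9.06). Smaller strain differences were called on Ntrk2 1435305_at (adjusted p = 0.00837), with strain means from 9.16 in CE/J to 9.95 in BALB/cByJ, and on Ntrk3 1433825_at (adjusted p = 0.00946), with strain means from 7.76 in NON/LtJ to 8.41 in MA/MyJ. Both were lost without the 5 strains that stood apart and the 4 with raised cortical genes (adjusted p = 0.062 and 0.075). Ntrk2 1420838_at was not called (adjusted p = 0.107) but was called without BALB/cByJ (adjusted p = 0.014).

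No strain call was made for Bdnf (adjusted p = 0.6), Nrn1 (adjusted p = 0.41) or Vgf (adjusted p = 0.198). For Bdnf and Nrn1 this F test averages a bright cortex level with a dim accumbens level, and a difference confined to cortex has 1 array per strain and no replicate. For Vgf, BTBR T+ tf/J had the lowest strain mean, 9.16, followed by FVB/NJ at 9.52, and SJL/J the highest at 10.10.

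**Figure D3:**
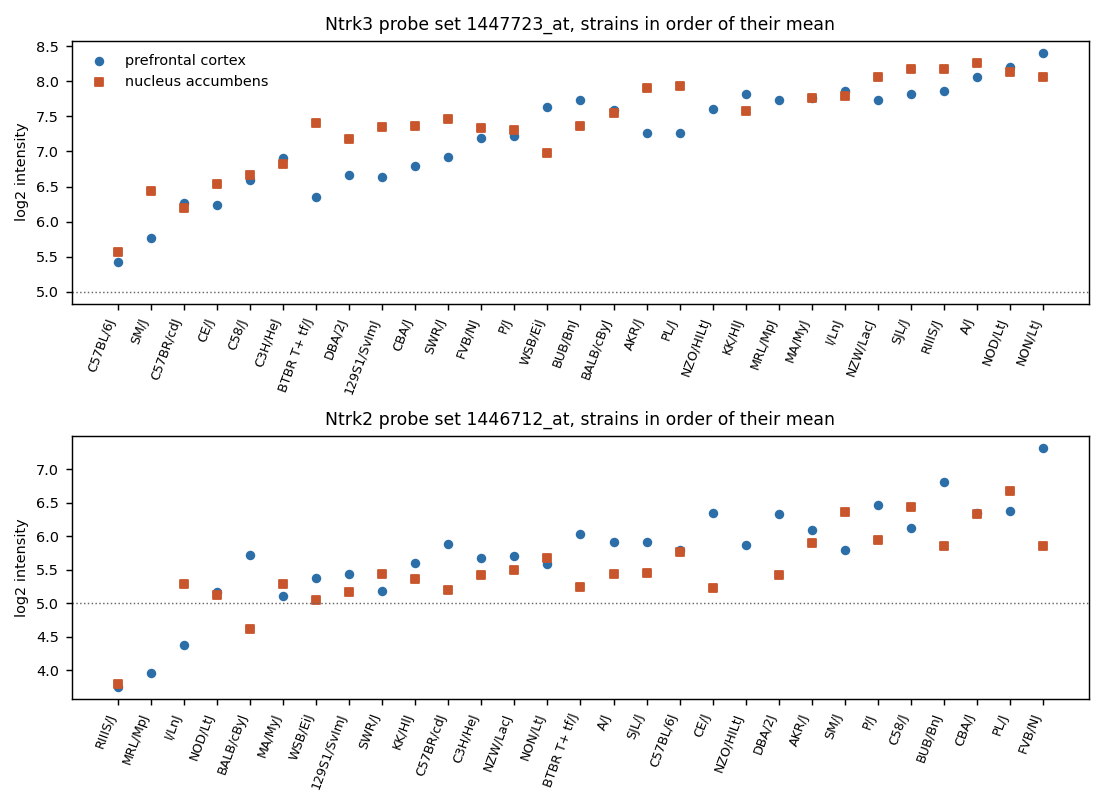
Log2 intensity of Ntrk3 probe set 1447723_at and Ntrk2 probe set 1446712_at in each strain, in order of the strain mean, in cortex (blue circles) and accumbens (orange squares); the dotted line is log2 5. C57BL/6J is lowest on the first (5.42 and 5.56) and RIIIS/J on the second (3.75 and 3.79), in both regions.

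Cortex arrays with more Bdnf had more Vgf. With 1 array per strain, differences between strains and between pools cannot be told apart here. Correlations between genes were computed over arrays within a region, 30 in all for the brightest probe set of each gene, with permutation p-values adjusted over the 30. Bdnf and Vgf in cortex had r = 0.71 and rho = 0.62 (adjusted permutation p = 0.0003 and 0.0063, n = 29), and r = 0.61 without the 2 arrays farthest from the median Bdnf level. Without the 5 strains whose arrays stood apart r was 0.78. BTBR T+ tf/J and C57BR/cdJ were the lowest pair for each gene, and SM/J, NON/LtJ and I/LnJ were the 3 highest for Bdnf and had Vgf levels of 10.09, 10.06 and 9.94. Bdnf with Nrn1 in cortex had r = 0.39 and rho = 0.40 (adjusted permutation p = 0.15 and 0.15) and Nrn1 with Vgf r = 0.22 and rho = 0.27 (adjusted p = 0.43 and 0.33). Without the 5 strains that stood apart, Nrn1 with Vgf had r = 0.59 and rho = 0.43 (adjusted permutation p = 0.021 and 0.2), and without these and the 4 with raised cortical genes r = 0.60 and rho = 0.45 (adjusted p = 0.043 and 0.24), past the threshold by r and not by rho.

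Cortical Bdnf and Vgf were also set against the mean of the immediate early genes, which neuronal activity induces within minutes. The correlations were r = 0.36 and rho = 0.33 for Bdnf (adjusted permutation p = 0.22 and 0.38) and r = 0.44 and rho = 0.36 for Vgf (adjusted p = 0.2 and 0.37), over a family of 48, and neither passed. Neither gene's correlation with the oligodendrocyte or astrocyte mean or with the cortical minus spiny neuron mean passed in cortex.

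In accumbens, Ntrk2 and Vgf had r = 0.55 and rho = 0.51 (adjusted permutation p = 0.02 and 0.037, n = 27), with r = 0.46 without the 2 farthest arrays. Without the 5 strains that stood apart r was 0.55 and rho 0.43 (adjusted p = 0.052 and 0.2), and neither passed. The other 3 of the 5 pairs that passed involved a gene whose mean lay below log2 5, and their order is not read. Accumbens Nrn1 was set against the cortical and the spiny neuron markers of the same array. The 5 arrays at 4.99 or above (BALB/cByJ, BUB/BnJ, SJL/J, NOD/LtJ and P/J) lay apart from the other 22, so no pooled correlation is given. On NOD/LtJ, BUB/BnJ, SJL/J and P/J the cortical neuron mean was 5.34, 4.92, 4.84 and 4.64, against a median of 3.61 over all accumbens arrays, and the spiny neuron mean was near its median of 10.97. AKR/J (4.27) and PL/J (4.22) came next in cortical neuron mean, with Nrn1 at 3.31 and 3.30. On BALB/cByJ, highest in Nrn1, the cortical neuron mean was 3.59, near the median, and the spiny neuron mean was the lowest. The cortical minus spiny mean of the 5 ran from -6.51 in P/J to -4.58 in BALB/cByJ (median of all -7.20). NON/LtJ (-6.08) and CE/J (-6.22) lay in that range with Nrn1 at 3.45 and 3.87. Over the 18 strains left without the 5 that stood apart and the 4 with raised cortical genes, r was 0.47 and rho 0.37 (adjusted permutation p = 0.46 and 0.68). All arrays with Nrn1 at 4.99 or above were among those left out. The 18 that remained lay below log2 5, where order is not read, so nothing is concluded from these values.

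**Figure D4:**
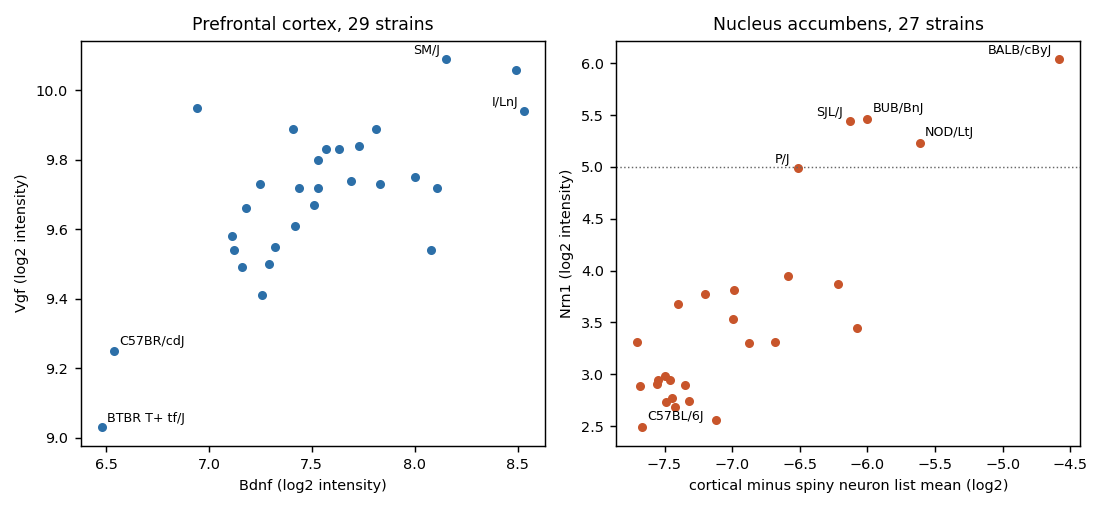
Left, Vgf against Bdnf log2 intensity in cortex of 29 strains (r = 0.71). Right, Nrn1 log2 intensity in accumbens of 27 strains against the mean of cortical neuron genes minus that of spiny neuron genes on the same array, with log2 5 dotted; BALB/cByJ has the highest value on both axes (6.04 and -4.58).

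Strain order was shared between regions only in part. Of 6 genes, Ntrk3 1433825_at had the highest correlation between cortex and accumbens over 27 strains (r = 0.56, rho = 0.50, adjusted permutation p = 0.015 and 0.05), and r was 0.51 without the 2 farthest strains. It passed by r but not by rho, and by neither without the 5 strains that stood apart (r = 0.53, rho = 0.51, adjusted p = 0.072 and 0.097) or without these and the 4 with raised cortical genes (adjusted p = 0.084 and 0.1). Ntrk2 had r = 0.34 and rho = 0.22 (adjusted p = 0.25 and 0.57) and Vgf r = 0.25 and rho = 0.14 (adjusted p = 0.3 and 0.57). Bdnf, Nrn1 and Ngfr, dim in at least 1 region, are not read.

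The named genes whose levels followed a member most closely over the arrays of a region were found by Spearman's rho, as a description, since arrays share their tissue composition. Among 8205 genes in cortex, those closest to Bdnf were Ppp1r3c (rho 0.73), a glycogen-targeting subunit of protein phosphatase 1, Zbtb16 (0.72), a zinc finger transcription factor, and Dusp14 (0.69), a dual-specificity phosphatase. Those closest to Vgf were Fosl2 (0.77), a Fos family factor, Pdp1 (0.77), the phosphatase of pyruvate dehydrogenase, and Ier5 (0.76), an immediate early gene. For Nrn1 they were Entr1 (0.72), Elmo2 (0.72) and Alas1 (0.68), the first enzyme of haem synthesis.

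For the receptors in cortex the closest were Ero1b (0.75), Pak4 (0.69) and Iqgap2 (0.66) to Ntrk2, and Tiam2 (0.64), Fam168b (0.64) and Pik3c2a (0.63) to Ntrk3. Among 8275 genes in accumbens, Ntrk2 was closest to Nsmf (0.70), Tbk1 (0.67) and Nlk (0.66), and Ntrk3 to Cep83 (0.86), Lrrtm3 (0.72), a synaptic adhesion protein, and Med1 (0.71). Vgf in accumbens was closest to Smad3 (0.76), Plekhm3 (0.75) and Trmt6 (0.72). No gene was named for both regions.

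Other genes of the pathway were described by list. Beside the counts of each list, 51.8% of all tested probe sets were higher and 31.5% lower in accumbens, and 20.1% were strain dependent. Of 12 further ligands, receptors and processing enzymes 7 were tested, with 3 higher and 2 lower in accumbens (median 0.08, against 0.13 over all tested). The sortilin family receptors, which bind neurotrophin precursors, went both ways. Sorcs1 was higher by 0.90 (SE 0.08, adjusted p = 4.7e-12, limma) and Sorcs2 by 0.86 (SE 0.07), while Sort1 was lower, with a difference of -0.58 (SE 0.05). The precursor-cleaving protease gene Pcsk5 had a dim accumbens level and was lower there by at least 1.61-fold (adjusted p = 1.2e-09). Strain dependence was called for Sorcs1 (adjusted p = 0.014) and Sorcs3 (adjusted p = 5.7e-06).

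Of 24 adaptor and signalling genes downstream of the receptors 14 were tested, with 11 higher in accumbens and 1 lower (median 0.40). With quantile normalization 10 were higher and 3 lower (median 0.31), against 42.6% and 39.5% of all tested probe sets. The MAP kinase kinase gene Map2k1 was higher by 0.91 (SE 0.05, adjusted p = 8.5e-16, limma), and Ndn and Maged1, whose proteins bind the p75 receptor, by 0.71 (SE 0.07) and 0.60 (SE 0.04). The exception was Pik3r1, the regulatory subunit of PI3 kinase, with a difference of -0.66 (SE 0.08).

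Of 14 transcription factors and cofactors known at Bdnf promoters 10 were tested, with 4 higher and 4 lower in accumbens (median 0.01). Lower were Mef2c (-1.89, SE 0.16, a 3.72-fold difference), the activity-induced factor Npas4 (-1.18, SE 0.14), Arnt2 (-0.54) and Crem, which was dim in accumbens and at least 1.38-fold lower (adjusted p = 3.4e-16). Higher were Mef2a (0.63, SE 0.06), Crebbp (0.49), Crtc1 (0.31) and Mef2d (0.25). Creb1 itself had a difference of 0.02 (adjusted p = 0.69, limma). All 10 tested immediate early genes were lower in accumbens (median -1.40), among them Arc (-2.28), Fos (-2.03) and Ier2, which was dim in accumbens and at least 1.54-fold lower, and 6 of the 10 were strain dependent.

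Of 11 dense-core granule genes, which share Vgf's compartment, 9 were tested, with 1 higher and 6 lower (median -0.24). The granule release factor Cadps2 was 9.10-fold lower in accumbens (-3.19, SE 0.24, adjusted p = 2.1e-13, limma). Its accumbens level lay near log2 5 with a wide spread (5.33 ± 1.3, SD), so this fold is approximate. Cadps (-1.19, SE 0.10) and Chgb (-0.96, SE 0.04) were also lower, while Scg2, a granin, was 2.98-fold higher (1.58, SE 0.05). Of 21 other trophic factors and receptors 11 were tested, with 3 higher and 4 lower (median 0.03). The GDNF family co-receptors differed in direction: Gfra2 was 7.26-fold lower in accumbens (-2.86, SE 0.17, adjusted p = 8.5e-16) and Gfra1 at least 2.47-fold higher (1.80, SE 0.08, adjusted p = 1.5e-18). Mdk was higher (0.74, SE 0.07) and Cntfr, the receptor of ciliary neurotrophic factor, dim in accumbens and at least 1.40-fold lower there (adjusted p = 5.9e-06).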

How the data were processed

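The data were 1-colour array measurements of 29 prefrontal cortex and 27 nucleus accumbens pools. The deposited values are linear intensity per probe set, made by the authors with GCRMA per the submitters' processing notes (background correction, quantile normalization and probe summary; version not given in the sources used here). The values show a separate normalization run for each region. Log2 was taken with no pseudocount. Of 45015 probe sets 64 were controls and were dropped; of the rest, the platform annotation gives 1 symbol for 34880, several for 923 and none for 9148, and all 23 member symbols were unchanged by gene identifier. Probe sets above log2 5 on at least 13 of 54 paired arrays were tested (limma 3.58.1, lmFit and eBayes, in R 4.3.3; strain as a block, since a strain's cortex and accumbens share their brains, per the series' design; region by moderated t, strain by moderated F; Benjamini-Hochberg, threshold 0.05). Nothing in the labels gives separate pools of 1 strain and region, so the error is the strain by region spread and p-values measure only that. Precision is limited by how many arrays there are. Correlations and pairs of probe sets used 100000 permutations (Python 3.11.15, numpy 2.4.6, pandas 2.3.3, scipy 1.17.1; figures with matplotlib 3.10.9). Folds against a region mean below log2 5 are bounds. The tests were also run on simulated data. Sequences are RefSeq's.

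The members and the gene lists were chosen with earlier results of these data known. Named genes are all members, up to 4 per list by absolute difference among those called, and the 3 named genes of highest rho per member and region; Sorcs3, Arnt2, Crebbp, Crtc1, Mef2d and Creb1 were added after their values were seen. Each list gene is represented by its brightest tested probe set. The alternatives tried were dropping the filter, raising it to log2 7, quantile normalization, centring, trend and robust variance, 1 probe set per gene, the oligodendrocyte mean as a covariate, no replicate block, and leaving out each strain, 5 strains whose arrays stood apart (MA/MyJ, BALB/cByJ, CE/J, NON/LtJ and WSB/EiJ), or these and the 4 with raised cortical genes in accumbens (NOD/LtJ, SJL/J, P/J and BUB/BnJ). Raising values below log2 5 to that level, the correlations without 9 strains and those between probe sets were added after seeing the data.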

Additional observations from a re-analysis of the deposited data

How the results depend on the processing

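The region differences of Bdnf, Nrn1, Ntrk2 1458622_at, 1437560_at, 1435305_at and 1435196_at, and Ntrk3 1422329_a_at and 1455917_at kept their direction and call under every alternative that gave them a value. With no filter all 23 probe sets were tested, and 10 were called higher and 9 lower. Of all 44951 then tested, 17003 were called higher and 18679 lower. Of the 13, 3 were called higher with the oligodendrocyte covariate. Calls over all 16056 probe sets then fell from 8320 to 5977 higher and from 5060 to 3467 lower. With only the brightest probe set per gene, 1 was called higher, 3 lower and 1 strain dependent, against 5451, 3516 and 2180 of all 10684 tested. Without the replicate block, 4 were called higher and 5 lower, against 8003 and 4818 of all 16056 tested. 3 calls were then lost: Ntrk3 1433825_at (0.093, adjusted p = 0.14), Ntrk2 1446712_at (-0.28, adjusted p = 0.14) and Ntrk3 1447723_at (0.20, adjusted p = 0.34). Ntrk3 1433825_at was also lost with the oligodendrocyte covariate (0.17, adjusted p = 0.11) and reversed to -0.002 with quantile normalization; leaving out each strain gave 0.077 to 0.107. With the covariate, Ntrk2 1420838_at (0.19, adjusted p = 0.2), 1446712_at (adjusted p = 0.44) and Ntrk3 1447723_at (adjusted p = 0.5) lost their calls. Vgf was called when centred (0.15), without the 5 strains (0.15) and without NON/LtJ or SM/J, in a range of 0.079 to 0.127 over the strains left out. Pairs of genes past the threshold fell from 5 to 2 without the 5 strains and 1 without the 9, and correlations with list means from 2 to 0 in both cases, with fewer arrays. The adaptor list had 3 lower genes with quantile normalization. The cause of these changes was not tested. Dim signal limits Bdnf and Nrn1 in accumbens and Ngfr in both regions.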

Other observations

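The 3′ minus 5′ difference of the actin control probe sets, a measure of RNA integrity, was 1.74 ± 0.27 in cortex and 1.92 ± 0.18 in accumbens (log2, SD, n = 27 paired strains in each region). It was larger in accumbens by 0.17 on average, in 19 of 27 strains (permutation p = 0.0021, 2-sided). Its part in the disagreement of the Ntrk2 and Ntrk3 probe sets was not tested.

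Over strains, the probe sets of 1 receptor gene rarely moved together. Of 42 correlations between tested probe sets of Ntrk2 or Ntrk3, chosen after seeing the data, 3 passed by r and rho: Ntrk3 1422329_a_at with 1455917_at (r = 0.73) and with 1433825_at (r = 0.58) in cortex, and Ntrk2 1435305_at with 1437560_at in accumbens (r = 0.57).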
